A study of Danio rerio with 6 samples.

Results

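The genes described here encode the core machinery that makes, cuts and reads the Notch signal: the Mastermind co-activators maml1 and maml3, the DNA-binding proteins rbpja and rbpjb, the gamma-secretase subunits psen2 and ncstn, the adaptor numb, the ubiquitin ligase mib1 and the glycosyltransferase lfng. These 9 genes were chosen by name from the authors' deposited comparison table, where maml1 carries the clone-style name CT990569.2. Of the 9, 8 were found there among 33737 genes, and 7 also had a level in the FPKM table of 32105 genes (FPKM are fragments adjusted for the length of the gene and the size of the library). No identifier in the comparison table was called mib1, and the identifier of ncstn has no row in the FPKM table.

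RNA was sequenced from hearts of adult zebrafish (Danio rerio), in 3 samples carrying the transgene Tg(hsp70l:DN-MAML) and 3 wild-type (WT) samples. All fish were of the TU-AB strain and 6 to 12 months old, and part of the heart had been amputated. Both groups received a 1 h heat shock at 38 C each day, and hearts were taken at 5 days after amputation. DN-MAML is a truncated, dominant-negative Mastermind; the heat shock promoter hsp70l drives it throughout the animal and not in a chosen cell type. Whether a sample is 1 heart or a pool is not stated, so the spread behind each p-value is that between these samples and may be technical.

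In the signal-sending cell, Mib1 ubiquitylates Notch ligands so that they are internalised and pull on the receptor. Fringe enzymes such as Lfng add a sugar to the receptor and bias which ligands it answers to. Once the receptor has been shed by an ADAM protease, gamma-secretase, with a presenilin as its catalytic subunit and nicastrin as its outer domain, frees the intracellular domain, while Numb restrains the pathway by routing receptors into the endocytic path. In the nucleus the freed domain joins Rbpj on DNA and recruits Mastermind, which brings in histone acetyltransferases. Dominant-negative Mastermind keeps the surface that binds Notch and Rbpj and lacks the part that recruits those partners, so it occupies the complex without activating transcription.

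The RNA of the 7 genes with FPKM, and of mib1, was measured above 0 in every sample of both groups, and none of them differed between the groups past the threshold; ncstn has no value per sample here. Of the 7 genes with FPKM, 0 passed limma's test across all genes (Benjamini-Hochberg adjusted p under 0.05; lowest adjusted p = 0.540), where 0.0966% of the 16556 genes tested did. At an unadjusted p under 0.05 there were also 0 of the 7, where 13.2% of all genes tested were below it. The groups overlapped for each of the 7, whereas they did not overlap for 18.8% of all genes tested. The log2 difference of DN-MAML minus WT was above 0 for 6 of the 7, against 55.1% of all genes tested. It was above 0 for 5 of 7 under quantile normalization, likewise for 5 of 7 under median-ratio scaling, and for 4 of 7 without WT replicate 2. Over all genes tested, the median log2 difference was -0.006 under median-ratio scaling and -0.022 without WT replicate 2. Of the 8 genes in the authors' deposited table, 5 had a log2 change above 0, where 8999 of 18217 genes with an adjusted p did. In limma the median log2 difference of the 7 was 0.11 beside 0.03 over all genes tested, and 0.09 beside -0.002 after quantile normalization. Of the 8 genes found in the authors' deposited table, 0 passed there (lowest adjusted p = 0.553), where 4.38% of genes with an adjusted p did, and 0 of the 8 had an unadjusted p under 0.05.

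By level, lfng was the highest of these genes in each of the 6 samples, at a mean of 46.8 FPKM over all samples, above 91.5% of the genes tested. It was followed by mib1 (15.1 FPKM), psen2 (9.50) and numb (5.16), each separated from the next without overlap of the samples. Below them rbpja (4.03 FPKM) and maml1 (4.01) could not be ordered, since rbpja was the higher in 4 of 6 samples. The ranges of maml1 and maml3 (3.37 FPKM) overlapped, and so did those of maml3 and rbpjb (2.04), although within each of the 6 samples maml1 was above maml3 and maml3 above rbpjb. The level of rbpjb was above 24.3% of the genes tested, and those of the other genes lay between.

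**Figure D1:**
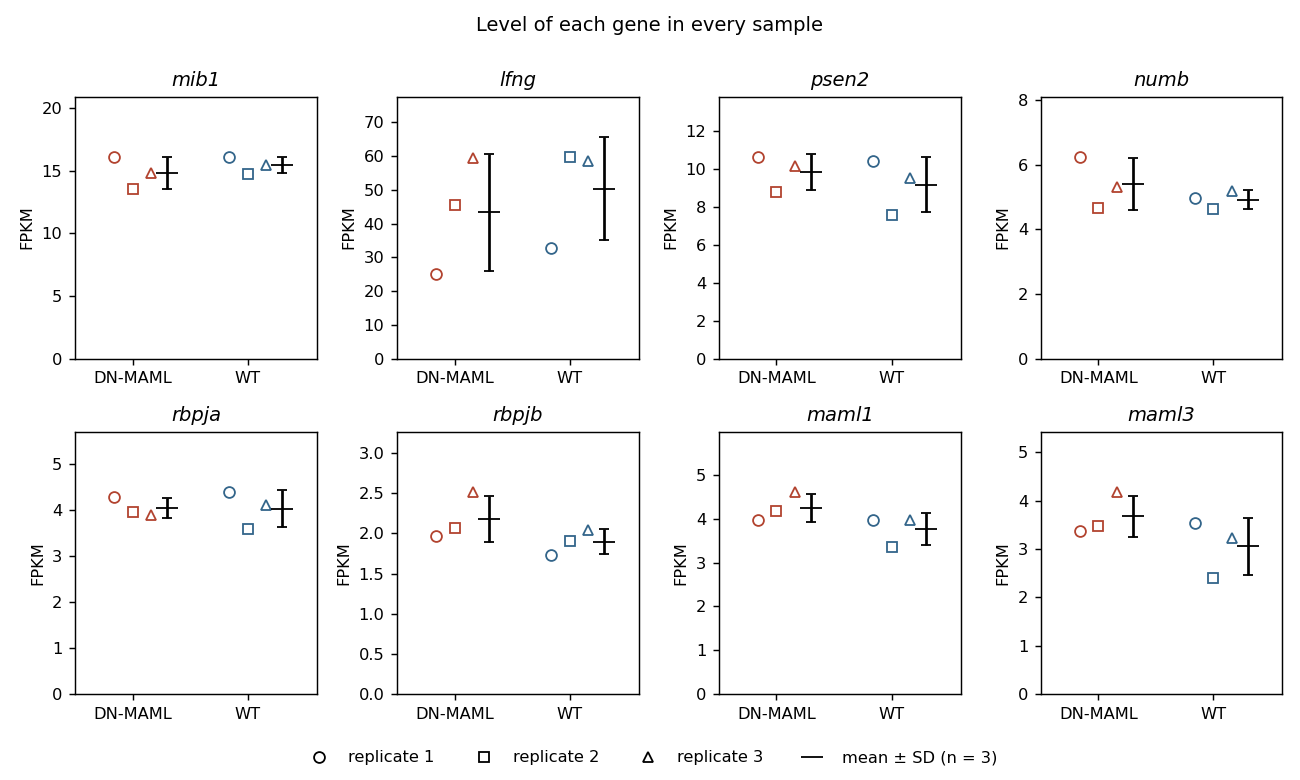
FPKM of each gene (vertical axes, from 0) in the 3 DN-MAML and 3 WT samples; open symbols are samples, by replicate number, and black bars are mean ± SD (n = 3). The groups overlap in every panel, and lfng has the widest spread, 25.05 to 59.51 FPKM in DN-MAML and 32.66 to 59.72 in WT.

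The ligand side was represented by mib1. The gene name table gives this symbol to ENSDARG00000102184, which has FPKM and is absent from the comparison table, so mib1 stands outside the 7 genes counted above. It had 16.09, 13.50 and 14.80 FPKM in DN-MAML replicates 1, 2 and 3, and 16.07, 14.77 and 15.45 FPKM in WT replicates 1, 2 and 3. The groups met at the upper end, the WT range lay inside that of DN-MAML, and the lowest value was that of DN-MAML replicate 2. The log2 difference was -0.06 (SE 0.10, 95% interval -0.29 to 0.17; limma adjusted p = 0.825). The comparison table holds mib, which the RefSeq gene table lists as a synonym of mib1, under another identifier. For mib the authors' deposited table lists a normalized count of 1345 on average and a log2 change of -0.07 (adjusted p = 0.785). For MIB1 (1 of 2), a further identifier there, the authors' deposited table gives a log2 change of -0.06 (adjusted p = 0.837). Whether the 3 identifiers are the same gene was not established.

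At the receptor, lfng was the gene that varied most. Its levels were 25.05, 45.59 and 59.51 FPKM in DN-MAML replicates 1, 2 and 3, and 32.66, 59.72 and 58.52 FPKM in WT replicates 1, 2 and 3. DN-MAML replicate 1 and WT replicate 1 were the low samples of their groups, and the highest DN-MAML sample was level with the upper WT samples. The spread within groups was 0.56 on the log2 scale (pooled SD), larger than that of 95.4% of the genes tested. The mean was 43.4 ± 17.3 FPKM in DN-MAML and 50.3 ± 15.3 FPKM in WT (SD, n = 3), a log2 difference of -0.25 (SE 0.39; limma adjusted p = 0.819). The 95% interval, -1.19 to 0.70, is the widest of these genes and holds both a fall and a rise of more than 1.5-fold. Without DN-MAML replicate 1 the log2 difference was 0.10, on the other side of 0. The authors' deposited table gives a log2 change of -0.26 (adjusted p = 0.738) on an average normalized count of 6890, the largest count of these genes.

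Lfng made up most of the fringe RNA. Its share of the summed FPKM of lfng, mfng and rfng was 71.3%, 82.2% and 85.4% in DN-MAML replicates 1, 2 and 3, and 77.6%, 90.4% and 88.5% in WT replicates 1, 2 and 3. The mean share was 79.6 ± 7.40% in DN-MAML and 85.5 ± 6.92% in WT (SD, n = 3), and the groups overlapped (exact two-sided permutation test, p = 0.4). With 3 against 3 this test cannot go below 0.1. It therefore could not pass a threshold of 0.05, here or for the ratios and sums below. The manic fringe gene mfng had 7.36, 7.11 and 7.70 FPKM in DN-MAML samples, against 6.65, 4.45 and 5.37 FPKM in WT samples. All 3 DN-MAML values of mfng were above the WT values, and the log2 difference of 0.41 (SE 0.14) had an unadjusted p of 0.0215 and did not pass over all genes (limma adjusted p = 0.297).

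Of gamma-secretase, psen2 had 10.61, 8.78 and 10.14 FPKM in DN-MAML replicates 1, 2 and 3, and 10.41, 7.55 and 9.50 FPKM in WT replicates 1, 2 and 3. In both groups replicate 2 was lowest, and the ranges overlapped for most of their length. The log2 difference was 0.11 (SE 0.14, 95% interval -0.21 to 0.43; limma adjusted p = 0.768), and -0.02 without WT replicate 2.

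Nicastrin, ncstn, could be read from the authors' deposited table alone. There the authors' deposited table lists it at a normalized count of 446 on average, with a log2 change of 0.05 (SE 0.15, adjusted p = 0.927). The subunits psenen and aph1b, which are also parts of the complex, had 27.7 ± 0.295 and 14.1 ± 1.57 FPKM in DN-MAML, against 26.3 ± 2.33 and 14.2 ± 1.16 FPKM in WT (SD, n = 3). Their log2 differences were 0.08 and -0.01 (limma adjusted p = 0.750 and 0.985).

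The adaptor numb had 6.24, 4.65 and 5.31 FPKM in DN-MAML replicates 1, 2 and 3, and 4.97, 4.62 and 5.18 FPKM in WT replicates 1, 2 and 3. DN-MAML replicate 1 was the highest sample, and the other DN-MAML values lay within or close to the WT range. The log2 difference was 0.11 (SE 0.13, 95% interval -0.18 to 0.41; limma adjusted p = 0.727), and 0.01 without DN-MAML replicate 1. The authors' deposited table gives a log2 change of -0.0012 (SE 0.12).

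**Figure D2:**
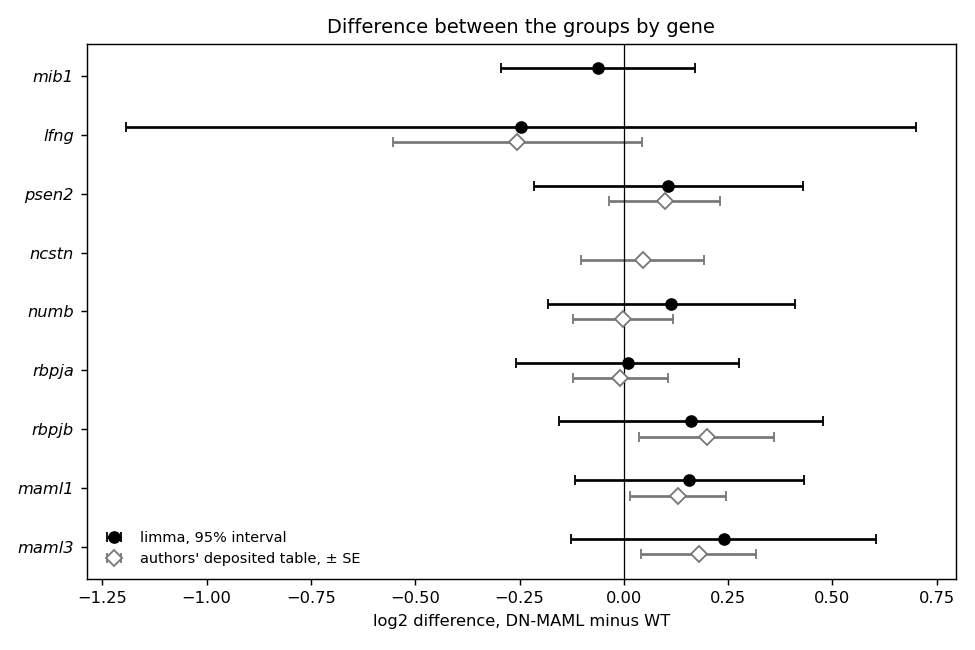
Log2 difference of DN-MAML minus WT (horizontal axis) for each gene. Filled circles are limma's estimates on log2(FPKM + 0.5) with 95% intervals, and open diamonds are values of the authors' deposited table ± SE; all 8 limma intervals include 0.

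Zebrafish carry a pair of Rbpj genes, and both were expressed. The level of rbpja was 4.29, 3.96 and 3.88 FPKM in DN-MAML replicates 1, 2 and 3, and 4.38, 3.59 and 4.10 FPKM in WT replicates 1, 2 and 3. The DN-MAML values lay inside the WT range. The group means were 4.04 ± 0.217 FPKM in DN-MAML and 4.02 ± 0.401 FPKM in WT (SD, n = 3), a log2 difference of 0.01 (SE 0.12; limma adjusted p = 0.982). The 95% interval of that difference, -0.26 to 0.28, corresponds to a fold from 0.836 to 1.21 on the log2(FPKM + 0.5) scale. The sign of a difference this small turned with the scaling (-0.02 after median-ratio scaling and -0.05 after quantile normalization).

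The level of rbpjb was 1.97, 2.07 and 2.51 FPKM in DN-MAML replicates 1, 2 and 3, and 1.73, 1.91 and 2.04 FPKM in WT replicates 1, 2 and 3. The groups overlapped between 1.97 and 2.04 FPKM, and DN-MAML replicate 3 was the highest sample. The log2 difference was 0.16 (SE 0.14, 95% interval -0.15 to 0.48; limma adjusted p = 0.636). In the authors' deposited table it is 0.20 (SE 0.16, adjusted p = 0.583).

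Within a sample the ratio of rbpja to rbpjb does not depend on how the library was scaled. It was 2.18, 1.91 and 1.55 in DN-MAML replicates 1, 2 and 3, and 2.53, 1.88 and 2.01 in WT replicates 1, 2 and 3, so rbpja was the more abundant in all 6. On the log2 scale the ratio averaged 0.90 ± 0.250 in DN-MAML and 1.09 ± 0.225 in WT (SD, n = 3). The difference of -0.19 was smaller than the spread within either group (exact two-sided permutation test, p = 0.5). Summed, rbpja and rbpjb had 6.23 ± 0.182 FPKM in DN-MAML and 5.92 ± 0.361 FPKM in WT (SD, n = 3; exact two-sided permutation test, p = 0.3).

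Of the Mastermind genes, maml1 (ENSDARG00000076466) had 3.97, 4.18 and 4.60 FPKM in DN-MAML replicates 1, 2 and 3, and 3.98, 3.35 and 3.96 FPKM in WT replicates 1, 2 and 3. The lowest DN-MAML sample and the highest WT sample were 3.97 and 3.98 FPKM, so the groups met without separating. For maml1 the log2 difference was 0.16 (SE 0.12; limma adjusted p = 0.592), and the authors' deposited table lists 0.13 (SE 0.12). The 95% interval was -0.12 to 0.43, a fold from 0.923 to 1.35. The transgene has no row of its own among these identifiers, and whether its reads were counted to maml1 is not given in the sources used here, so maml1 does not check the genotype labels.

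For maml3 the levels were 3.37, 3.48 and 4.17 FPKM in DN-MAML replicates 1, 2 and 3, and 3.54, 2.40 and 3.23 FPKM in WT replicates 1, 2 and 3. WT replicate 2 stood below the other 5 samples, and WT replicate 1 was inside the DN-MAML range. The log2 difference, 0.24 (SE 0.16, 95% interval -0.13 to 0.61), was the largest of the 7 in size after that of lfng, and it was 0.10 without WT replicate 2. The authors' deposited table gives 0.18 (SE 0.14). For MAML2 (1 of 2), the remaining Mastermind name in the comparison table, which has no FPKM under its identifier, the authors' deposited table gives a normalized count of 153 on average and a log2 change of -0.12 (adjusted p = 0.838).

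The ratio of maml1 to maml3 was 1.178, 1.201 and 1.103 in DN-MAML replicates 1, 2 and 3, and 1.124, 1.396 and 1.226 in WT replicates 1, 2 and 3. On the log2 scale it averaged 0.21 ± 0.064 in DN-MAML and 0.32 ± 0.157 in WT (SD, n = 3), a difference of -0.10 (exact two-sided permutation test, p = 0.4). Summed, maml1 and maml3 had 7.92 ± 0.750 FPKM in DN-MAML and 6.82 ± 0.941 FPKM in WT (SD, n = 3; exact two-sided permutation test, p = 0.2).

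**Figure D3:**
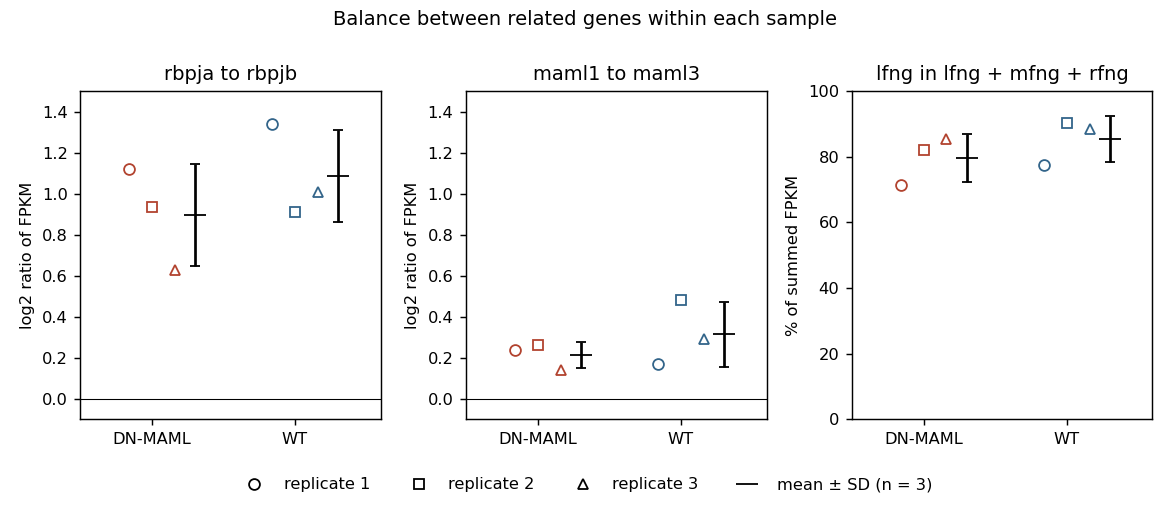
Balance between related genes within each sample: log2 ratio of FPKM for rbpja to rbpjb and for maml1 to maml3, and the share of lfng in the fringe genes (%). Open symbols are samples and black bars are mean ± SD (n = 3); the groups overlap in all 3 panels, and rbpja exceeds rbpjb and maml1 exceeds maml3 in all 6 samples.

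Of the 7 genes, lfng stood apart from the other 6 in how much it varied over the samples. Those 6 did not share a profile: WT replicate 1 was the highest sample for rbpja and the lowest for rbpjb. After centring each gene's log2 values, the root mean square difference over the 6 samples was smallest for maml1 and maml3 (0.092) and for rbpja and psen2 (0.099). The most unlike of the 21 pairs were lfng with psen2 (0.588) and with numb (0.568). This is a description over 6 samples, and flat profiles are close to each other by construction. WT replicate 2 was the lowest sample for 5 of the 7 (maml1, maml3, rbpja, psen2 and numb) and the highest for lfng. WT replicate 2 was also the library with the lowest estimated relative depth. Without it the median log2 difference of the 7 was 0.07 beside -0.022 over all genes tested. With all samples these medians were 0.11 and 0.03, so both fell. Of the marker gene sums given below, it had the highest erythroid and cardiomyocyte sums (32974 and 51754 FPKM). Its leukocyte and epicardial sums were the lowest (181 and 653 FPKM), and its endothelial and thrombocyte sums were at neither end. The part of depth or of cell content in these values was not tested.

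Cardiomyocyte genes were abundant in every sample, as the tissue label would have it, and the summed level of red blood cell genes separated the groups. The 10 cardiomyocyte identifiers summed to between 37653 and 46612 FPKM in DN-MAML samples and between 43691 and 51754 in WT samples. The 11 endothelial and endocardial identifiers summed to 300.3 to 377 FPKM in DN-MAML and 298 to 353 in WT, and the 10 leukocyte identifiers to 247 to 316 FPKM in DN-MAML and 181 to 249.9 in WT. The 10 erythroid identifiers summed to 11463 to 17442 FPKM in DN-MAML and 18600 to 32974 in WT, without overlap. Globin genes made up most of that sum. The mean was lower in DN-MAML for 9 of the 10. The groups separated for 3 of the 10, all globin genes, where 18.8% of all genes tested did not overlap. Cardiomyocyte identifiers likewise had 9 of 10 lower and 3 separated. For the leukocyte list 0 of 10 were lower, and 2 separated on the higher side, close to the 18.8% of all genes tested. In the remaining lists, 0 of 11 endothelial and 0 of 8 epicardial and fibroblast identifiers separated. Of the thrombocyte identifiers 1 of 5 did, on the lower side. The sum of the 5 thrombocyte identifiers was 25.0 to 29.9 FPKM in DN-MAML and 30.2 to 40.9 in WT, but the 5 genes did not all lie in that direction. Most of that gap came from gp1bb (mean 9.10 FPKM in DN-MAML and 15.5 in WT) and thbs1b (11.3 in DN-MAML and 14.3 in WT). The means of itga2b (3.10 FPKM in DN-MAML and 2.68 in WT) and mpl (2.45 in DN-MAML and 2.16 in WT) were higher in DN-MAML, and f5 was level (0.923 in DN-MAML and 0.930 in WT). The 8 epicardial and fibroblast identifiers overlapped (846 to 1135 FPKM in DN-MAML and 653 to 1195 in WT), and no marker of any list was at 0 in all samples. In whole hearts, fewer cells of a type and less RNA per cell cannot be told apart, and the part of these shifts in the values above was not tested.

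The other genes of the pathway were read from 6 lists by role, with 79 identifiers tested, the genes above included. Over all genes, 0 of the 79 passed limma's test (lowest adjusted p = 0.251), and 7 had an unadjusted p under 0.05, a smaller share than the 13.2% of all genes tested. The groups did not overlap for 10 of the 79, again a smaller share than the 18.8% of all genes tested. The median log2 difference was 0.04, with 47 identifiers above 0 and 32 below. Of the 86 list identifiers with an adjusted p in the authors' deposited table, 3 passed there. These were adam17b and dll4, lower in DN-MAML like 2.27% of all genes with an adjusted p in that table, and dld, higher in DN-MAML like 2.11%.

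Among 12 secretase and sheddase genes (median log2 difference 0.06, 8 above 0), adam17b had the smallest p. ADAM17 is a membrane protease that sheds the outer parts of many surface proteins and can cut Notch. The level of adam17b was 9.42, 9.90 and 10.46 FPKM in DN-MAML samples, against 12.50, 11.48 and 13.02 FPKM in WT samples. All DN-MAML values were below all WT values, the only gene of this list with that separation. The log2 difference was -0.30 (SE 0.10, 95% interval -0.52 to -0.07; limma adjusted p = 0.277), while in the authors' deposited table it is -0.37 with an adjusted p of 0.0189.

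Among 16 ubiquitin ligases and endocytic adaptors (median 0.01, 8 above 0), dtx3, a Deltex-family ubiquitin ligase, had the smallest p. Its levels were 2.39, 2.63 and 3.27 FPKM in DN-MAML samples, against 3.27, 4.74 and 5.22 FPKM in WT samples. DN-MAML replicate 3 and WT replicate 1 had the same value, and the other samples were apart. The log2 difference was -0.58 (SE 0.18; limma adjusted p = 0.274), and in the authors' deposited table it is -0.60 (adjusted p = 0.0923).

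Of 12 fringe and glycosylation genes (median 0.07, 7 above 0), mfng had the smallest p, and the groups did not overlap for it, for b4galt1 and for poglut1, which is 3 of 12 where 18.8% of all genes tested did not overlap. The genes b4galt1 and poglut1 were named after their values were seen. The galactosyltransferase b4galt1 (ENSDARG00000002634) had a log2 difference of 0.42 (SE 0.16; limma adjusted p = 0.326), and another identifier of that name, ENSDARG00000104404, had -0.16 (SE 0.13), so the direction of b4galt1 differs between copies. The O-glucosyltransferase poglut1 averaged 6.86 ± 0.379 FPKM in DN-MAML and 8.19 ± 0.330 FPKM in WT (SD, n = 3), a log2 difference of -0.24 (limma adjusted p = 0.349).

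Among 10 Rbpj co-activator genes (median 0.14, 8 above 0), which include the 4 Rbpj and Mastermind genes above, ep300b had the smallest p. It encodes a histone acetyltransferase that Mastermind recruits, and it had 5.54, 5.37 and 6.16 FPKM in DN-MAML samples, against 5.36, 4.55 and 4.96 FPKM in WT samples. The lowest DN-MAML and the highest WT value were 5.37 and 5.36 FPKM, and the log2 difference of 0.18 (SE 0.11) did not pass (limma adjusted p = 0.505). Among 20 co-repressor genes (median 0.01, 11 above 0), the smallest p was that of 1 identifier of ctbp1, a co-repressor that binds repressor complexes. This identifier, ENSDARG00000057007, averaged 19.6 ± 1.48 FPKM in DN-MAML and 22.7 ± 1.78 FPKM in WT (SD, n = 3). Its log2 difference was -0.21 (limma adjusted p = 0.434). Another identifier of that name, ENSDARG00000019213, averaged 13.9 ± 0.964 FPKM in DN-MAML and 14.2 ± 0.649 FPKM in WT (SD, n = 3). Its log2 difference was -0.02 (limma adjusted p = 0.943).

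For the 9 receptors and ligands tested (median 0.06), the smallest p was that of the endothelial ligand dll4, at 9.47, 10.02 and 11.86 FPKM in DN-MAML samples, against 14.28, 12.65 and 14.45 FPKM in WT samples (limma adjusted p = 0.251; authors' deposited table, log2 change -0.42, adjusted p = 0.0260). The ligand dld had 1.74, 0.73 and 1.01 FPKM in DN-MAML samples, against 0.71, 0.34 and 0.19 FPKM in WT samples. Its mean of 0.787 FPKM was above only 7.22% of the genes tested, and the lowest DN-MAML value was close to the highest WT value. The log2 difference was 0.86 (SE 0.29, limma adjusted p = 0.291), which the added 0.5 affects at this level. In the authors' deposited table dld is the only list gene that passed on the higher side (log2 change 1.299, adjusted p = 0.0240).

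**Figure D4:**
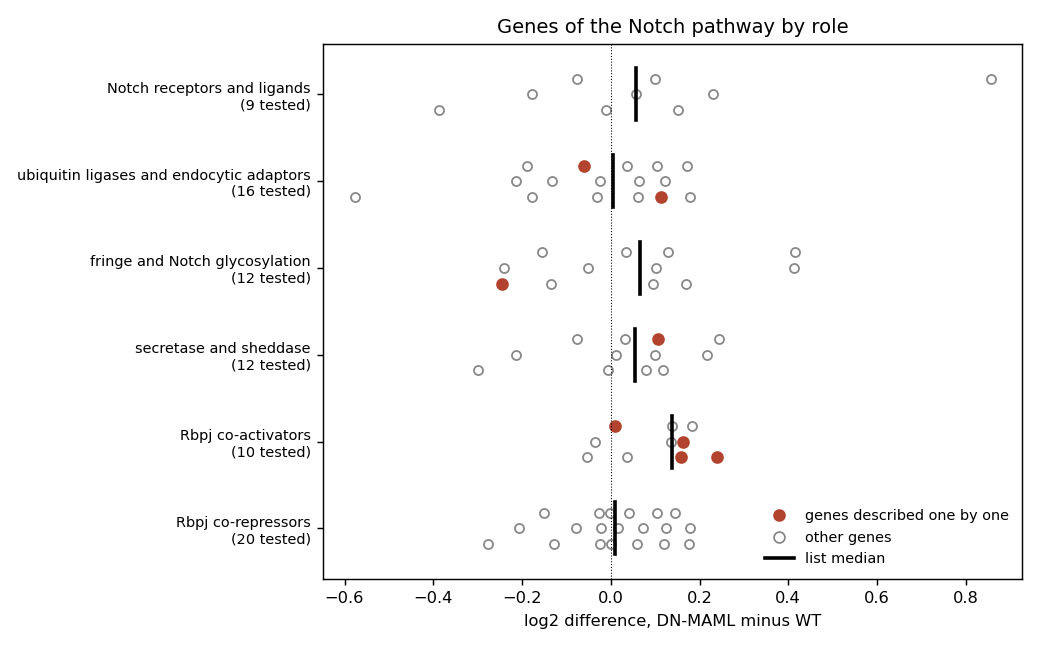
Log2 difference of DN-MAML minus WT (horizontal axis) for the 79 tested identifiers of the 6 lists by role. Filled circles (in the key, genes described one by one) are the 7 genes with FPKM and mib1. Open circles are all other genes of the lists, also those that the text names. Black bars are the list medians, which lie between 0.01 and 0.14. The open circle farthest right is dld (0.86) and the one farthest left is dtx3 (-0.58).

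The intervals are unadjusted and give the changes compatible with these samples, not the change that the test over all genes could call. For adam17b the interval, -0.52 to -0.07, left out 0, yet the limma adjusted p was 0.277. For the 6 genes other than lfng, the upper ends of the 95% intervals ran from 0.28 for rbpja to 0.61 for maml3, and the lower ends from -0.26 for rbpja to -0.12 for maml1. A rise of maml3 by 1.52-fold or a fall of psen2 to 0.862 of WT is therefore inside the intervals. Both folds are on the log2(FPKM + 0.5) scale, not on FPKM itself. Leaving out 1 sample at a time moved the log2 difference between 0.09 and 0.20 for maml1 and between 0.08 and 0.22 for rbpjb, all on the higher side. The corresponding range was -0.06 to 0.07 for rbpja and -0.53 to 0.10 for lfng, on both sides of 0.

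**Figure D5:**
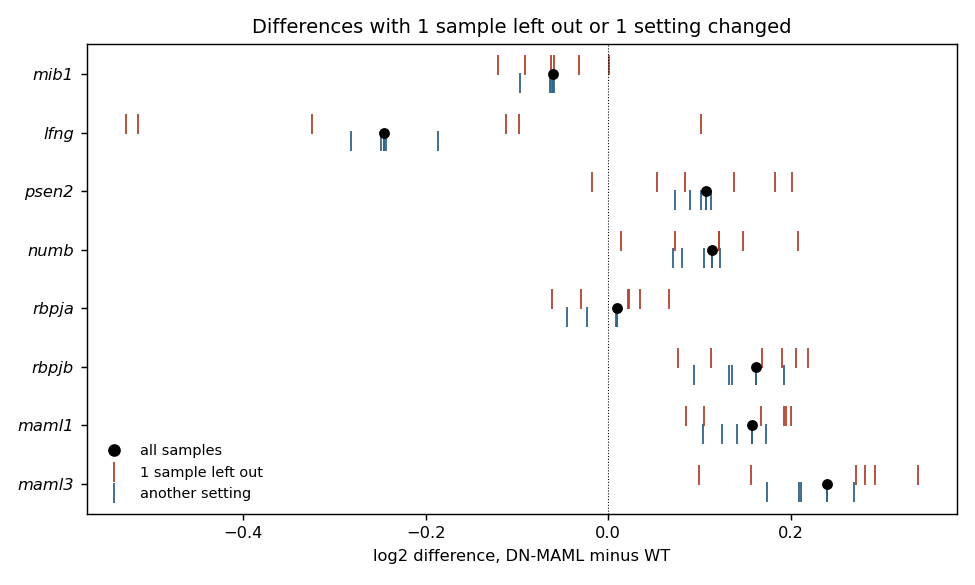
Log2 difference of DN-MAML minus WT (horizontal axis) for each gene with all samples (filled circles), with each of the 6 samples left out in turn (red ticks) and with another setting (blue ticks). The ticks of lfng run from -0.53 to 0.10, those of maml1, maml3, rbpjb and numb stay above 0, and those of rbpja, psen2 and mib1 reach both sides of 0.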

How the data were processed

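The authors deposited FPKM for 32105 genes in 6 samples and a comparison table of 33737 genes; the tools named in the submitters' processing notes are STAR, cutadapt, FastQC, DESeq2 and featureCounts, without version or role. Build, annotation and FPKM tool: not given in the sources used here. Per the file headers, the comparison table holds DESeq2's normalized mean count (a signal averaged over the samples), log2 fold change with its standard error, a score (change over its error, as checked), and p-values and adjusted p-values. The tables share 24667 identifiers; 9070 are in the comparison table alone.

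FPKM hold no counts, so absolute depth per sample is unknown, and counting intervals cannot be computed. Genes read in 1 sample alone were kept if the authors' mean count was low, which left 21 to 66 genes per sample. Their mean counts cluster at 1 value per sample (68.6% to 89.8% of these genes). If that value is 1 read, the relative depths (size factors) are 1.182, 1.042 and 0.931 in DN-MAML replicates 1, 2 and 3. In WT replicates 1, 2 and 3 they are 1.048, 0.751 and 1.142. The clustering was weakest in WT replicate 2 (68.6% of 35 genes, at 0.222, near the upper limit kept).

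Genes with a mean of at least 0.5 FPKM (16556) were compared as log2(FPKM + 0.5) in limma 3.58.1 (R 4.3.3; trended, robust variance, no block). The Benjamini-Hochberg adjustment ran over all genes, with a threshold of 0.05. Because of the added 0.5, the change of a gene with a low level is understated. Intervals are limma's and unadjusted. Ratios were compared by exact permutation in Python 3.11.15. Of these steps, the limma fit was tested on simulated data. One gene of the secretase list is counted in its list and not reported here by name.

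The members and lists were chosen with earlier results of these data known. The lists held 103 pathway symbols, of which 90 were matched, and 60 marker symbols. After values were seen, 3 identifiers that the authors give another name were dropped, among them one that a symbol match without regard to case had placed with dld. From each list the text names the gene with the smallest p, up to 3 passing in limma and up to 3 passing in the authors' deposited table. The gamma-secretase subunits psenen and aph1b were named outside this rule, and not every subunit of that complex is described.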

Additional observations from a re-analysis of the deposited data

How the results depend on the processing

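No gene of the 7, nor any of the 79 pathway identifiers (71 with a minimum mean of 2 FPKM, 86 with no filter), passed under any of the 14 alternatives: another pseudocount, filter, scaling or variance estimate, the replicate block, or a sample left out (limma, lowest adjusted p = 0.326 and 0.0809). The median log2 difference of the 7 stayed between 0.07 and 0.18, and was 0.11 with mib1 added, a choice made after seeing the data. The small difference of rbpja turned to -0.023 after median-ratio scaling and -0.045 after quantile normalization. With samples left out it ranged from -0.062 to 0.066, with lfng from -0.528 to 0.101, psen2 from -0.018 to 0.201 and mib1 from -0.121 to 0.001; the cause was not tested. Ratio differences ranged from -0.304 to -0.057 for rbpja to rbpjb and from -0.173 to -0.017 for maml1 to maml3.

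Over all genes 16 passed, 9 with a minimum mean of 2 FPKM, 10 after quantile normalization, and 4 to 180 with samples left out (180 without WT replicate 1). With the replicate number as a block 0 passed. Deviations of same-numbered samples had correlations of 0.208, -0.026 and 0.14, and those of other pairs ranged from -0.224 to 0.094. Whether the number pairs the samples was not established. Under the block lfng had a limma adjusted p of 0.345 and an SE of 0.11, beside an SE of 0.39 without it. The ratio of psen2 to ncstn was not run, since ncstn has no FPKM here. Sample number and unknown depth limit what could be detected.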
